A study of Mus musculus with 4 samples.

Results

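The chromatin genes described here are those that encode histone demethylases (Kdm), methyltransferases (Kmt, Setd, Ezh, Suv39h1), acetyltransferases (Kat), deacetylases (Hdac, Sirt), nuclear receptor co-repressors (Ncor), ATP-driven remodellers (Smarc, Chd), bromodomain proteins (Brd), ARID DNA-binding proteins (Arid) and the enzymes of DNA methylation (Dnmt, Tet). They were matched by gene symbol and not by their measured values, and 106 of the 11111 genes in the expression table matched. The set itself was chosen with earlier results of these data known. The match also took Dnmt3aos, an antisense transcript of Dnmt3a and not an enzyme gene. The RNA came from bone-marrow-derived macrophages (BMDMs) of C57BL/6 mice, which are cells grown out of marrow over 7 days in culture, with fresh medium on day 4. The Reg1-MOs group (2 libraries) had received morpholino oligonucleotides against Regnase-1, the RNase encoded by Zc3h12a, and the Ctrl MO group (2 libraries) a control morpholino. A morpholino is a synthetic antisense oligomer that binds an RNA without triggering its degradation.

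All 4 cultures received 2 µM morpholino with 6 µl/ml of the delivery peptide Endoporter for 24 hours and then lipopolysaccharide (LPS, 10 ng/ml) for 4 hours, so both groups were LPS-stimulated and no unstimulated or untransfected cells enter the comparison. Poly(A) RNA was sequenced. The 2 targeting oligomers are named MO1 and MO2, and the labels do not settle whether each Reg1-MOs library received 1 of them or both. Nor do the labels say that the replicates were grown from different animals or dishes, and the p-values therefore reflect library-to-library spread that could be technical. Levels below are normalised reads per 1000000 (RPM), which are the deposited log2 values taken back to a linear scale; the scaling is the authors', and the values of a library sum to between 1.27 and 1.32 times 1000000.

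The tails of histones carry acetyl and methyl groups that are written by acetyltransferases and methyltransferases, removed by deacetylases and demethylases, and read by bromodomain, chromodomain and PHD-finger proteins. ATP-driven remodellers of the SWI/SNF, ISWI and CHD families move or evict nucleosomes, and the CHD3 and CHD4 ATPases belong to the NuRD complex, which joins remodelling to histone deacetylation. In macrophages, LPS-inducible genes differ in how far they depend on SWI/SNF remodelling, BET bromodomain proteins read acetylated histones at inflammatory genes, and NCoR with HDAC3 holds many of the same genes down before stimulation. Regnase-1 itself cuts stem-loops in messenger RNAs of inflammatory genes.

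The promoter sequences below, of 300 bases each (250 before and 50 after a transcription start, RefSeq, build GRCm38.p6, read on the gene's strand), are shown for 4 of the 7 chromatin genes that passed the test, so that the starts of Hdac5, which rose, and of its close relative Hdac9, which fell, can be read side by side with those of a pair of CHD genes that fell. Each set of capitals marks a match, on either strand, to 1 of 8 motifs that were searched: the GC box GGGCGG, the CCAAT box CCAAT, the ETS core CCGGAAG, the AP-1 motif TGANTCA, the NF-kappaB motif GGGANTTCC, the antioxidant response element TGACNNNGC, the E-box CACGTG and the CRE TGACGTCA. Matches of the AP-1 motif, the CRE and the antioxidant response element can overlap one another.
Hdac5, chr11:102230123-102230422, minus strand: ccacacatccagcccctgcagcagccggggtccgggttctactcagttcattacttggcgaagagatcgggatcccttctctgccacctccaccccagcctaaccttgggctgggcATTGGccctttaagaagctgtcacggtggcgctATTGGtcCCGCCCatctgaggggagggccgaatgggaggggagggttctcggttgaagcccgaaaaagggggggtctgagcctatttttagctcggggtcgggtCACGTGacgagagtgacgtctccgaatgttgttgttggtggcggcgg
Hdac9 (first listed start), chr12:34917046-34917345, minus strand: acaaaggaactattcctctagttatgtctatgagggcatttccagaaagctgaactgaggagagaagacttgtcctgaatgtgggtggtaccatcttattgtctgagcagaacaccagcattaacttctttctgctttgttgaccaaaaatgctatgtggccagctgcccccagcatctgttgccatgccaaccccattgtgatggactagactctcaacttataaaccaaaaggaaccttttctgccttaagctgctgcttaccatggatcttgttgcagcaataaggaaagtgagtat
Chd4 (first listed start), chr6:125095731-125096030, plus strand: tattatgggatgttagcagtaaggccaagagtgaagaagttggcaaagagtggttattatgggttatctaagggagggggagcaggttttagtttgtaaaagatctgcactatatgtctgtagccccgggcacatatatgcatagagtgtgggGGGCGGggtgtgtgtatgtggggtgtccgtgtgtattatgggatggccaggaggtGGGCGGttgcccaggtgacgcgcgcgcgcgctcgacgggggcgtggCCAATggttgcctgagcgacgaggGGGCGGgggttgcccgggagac
Chd9 (first listed start), chr8:90828585-90828884, plus strand: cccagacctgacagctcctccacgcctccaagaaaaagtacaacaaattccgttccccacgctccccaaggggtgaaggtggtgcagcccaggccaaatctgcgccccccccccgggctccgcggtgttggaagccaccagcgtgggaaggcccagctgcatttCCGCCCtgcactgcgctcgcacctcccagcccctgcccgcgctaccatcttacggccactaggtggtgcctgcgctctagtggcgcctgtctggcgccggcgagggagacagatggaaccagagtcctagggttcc

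The Hdac5 window held 1 GC box, 2 CCAAT boxes and 1 E-box, and 60.7% of its bases were G or C. The Hdac9 window at this start held none of the 8 motifs and was 44% G or C. The Chd4 window held 3 GC boxes and 1 CCAAT box (57% G or C), and the Chd9 window held 1 GC box (65.7% G or C). At a second listed start, not printed, the Hdac9 window held 1 AP-1 match. The Chd4 window at its second start held 3 GC boxes, 1 CCAAT box and 1 NF-kappaB match. The Chd9 window at its second start held none of the 8 motifs and was 34.7% G or C. These are letters in a window and not tested sites. Promoter windows were found for 83 of the 106 chromatin genes, 118 windows in all counting alternative starts, and none was listed for Chd3 or Arid3a. The GC box was in 66.1% of these windows, against 35.7% of all 32851 mouse windows of the same length and 63% of the windows of genes in the expression table. The other shares among chromatin genes, all mouse windows and windows of table genes were 35.6%, 37.4% and 37.4% for the CCAAT box, 16.1%, 8.86% and 18.5% for the ETS core, and 9.32%, 7.81% and 5.08% for AP-1. The NF-kappaB motif was in 3.39%, 1.68% and 2.41%, the antioxidant response element in 11.9%, 12.4% and 14.5%, the E-box in 5.08%, 7.15% and 10.2%, and the CRE in 0%, 1.79% and 3.05%. The median window was 63.3% G or C among the chromatin genes and 52.7% among all mouse windows. This median was not taken over the windows of table genes, so a difference from those is not shown.

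The table held between 23369753 and 25213695 reads per library, with a median of 404 to 437 reads per gene. Zc3h12a, the targeted gene, stood at 403 and 380 RPM in Reg1-MOs, against 179 and 187 in Ctrl MO, a log2 difference of 1.10 (SE 0.07; adjusted p = 4.008e-04, limma, Benjamini-Hochberg over all genes). Since a morpholino does not act by degrading its target RNA, this level does not measure the amount of Regnase-1 protein or the direction of its change. The 10 macrophage markers were all in the table. They summed to 19320 and 19226 RPM in Reg1-MOs and to 21166 and 21065 in Ctrl MO. The markers differed in direction: Cd68 rose (log2 0.34), Itgam (-0.67) and Lyz2 (-0.27) fell, and 7 did not pass. The 30% that passed stands beside 12.2% of all genes. Of 8 dendritic cell markers 4 were in the table, where Itgax fell (log2 -1.55) and 3 did not pass (25% passed). Of 13 markers of stromal cells and fibroblasts, 10 were in the table and all 10 fell, with sums of 90.4 and 102 RPM in Reg1-MOs and 225 and 234 in Ctrl MO. The other 3 (Lum, Pdgfra and Thy1) were not analysed here. Among 15 markers of cycling cells 2 fell, Top2a and Birc5 (13.3%, where 12.2% of all genes passed the test in either direction). The cycling marker sums were 504 and 550 in Reg1-MOs and 549 and 588 in Ctrl MO. The part of these shifts in the chromatin genes was not tested, and in bulk RNA fewer cells of a type and less RNA per cell cannot be told apart.

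Of the 106 chromatin genes, 2 were higher and 5 were lower in Reg1-MOs at an adjusted p under 0.05 (limma with a mean-variance trend on the deposited log2 values, two-sided). Hdac5 and Chd3 rose. Hdac9, Arid3a, Chd9, Chd6 and Chd4 fell. The changes were small to moderate, between 1.24-fold for Chd4 and 2.20-fold for Hdac9. The 7 calls are 6.60% of the chromatin genes, where 12.2% of all genes in the table passed the same test. By direction, 1.89% rose, where 6.22% of all genes did, and 4.72% fell, where 6.03% of all genes did.

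The remaining 99 did not pass in this fit. Those that passed once the replicate number was a term in the fit are named under how the results depend on the processing. The log2 differences of the whole set ran from -1.13 to 0.67 with a median of -0.07, beside -0.03 over all genes, and 77 of the 106 (72.6%) were within 0.25 of 0 on the log2 scale, beside 64.8% of all genes. Values under 0 were found for 73 of the 106 (68.9%), beside 54.4% of all genes. The count was 59 (55.7%) without the first Reg1-MOs library, beside 52% of all genes in that fit. An unadjusted p under 0.05 was found for 26 (24.5%), beside 29.4% of all genes. In 57 of the 106 (53.8%) the 2 Reg1-MOs values did not overlap the 2 Ctrl MO values, 35 of them lower and 22 higher in Reg1-MOs, and this was so for 58.9% of all genes.

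Without the first Reg1-MOs library 3 of the 7 calls held (Chd3, Chd9 and Hdac9), and without a mean-variance trend only Hdac5 held. The calls were 2.83% of the chromatin genes when Reg1-MOs replicate 1 was left out, beside 4.56% of all genes in that fit. When Reg1-MOs replicate 2 was left out, 2 rose and 10 fell (11.3%, beside 12.5% of all genes). When the first Ctrl MO library was left out, 2 rose and 6 fell (7.55%, beside 7.79%), and when the second was, 2 rose and 3 fell (4.72%, beside 6.72%). The chromatin genes had a median of 892 reads over the 4 libraries, from 16.8 for Sirt5 to 19625 for Brd2, beside 430 over all genes. A mean under 50 reads was found for 8 of them, Chd5, Dnmt3aos, Dnmt3b, Sirt5, Sirt4, Sirt3, Kdm8 and Setd4, and their values are the least precise.

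**Figure D1:**
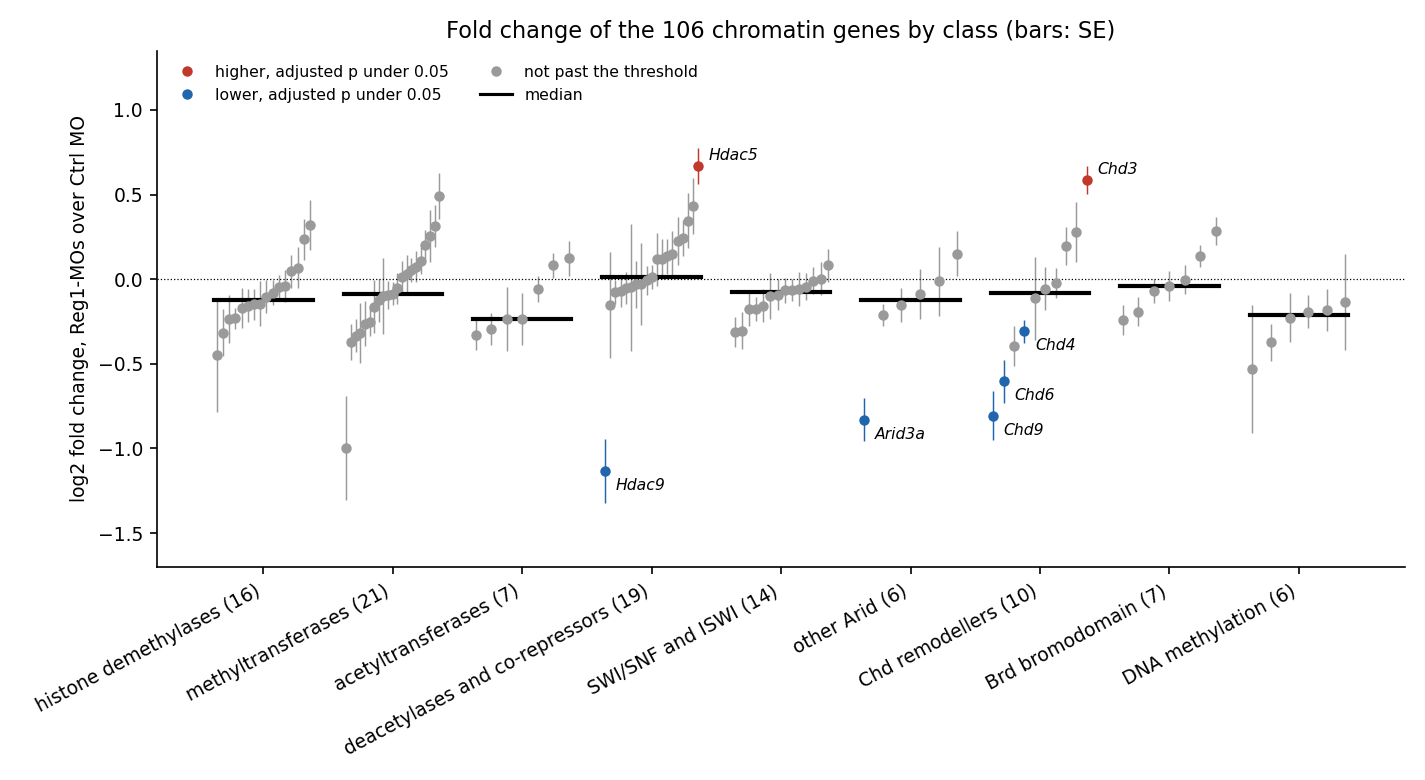
Log2 fold change of Reg1-MOs over Ctrl MO for each of the 106 chromatin genes (points, with the SE as bars), grouped in 9 classes along the horizontal axis with the number of genes in each; black lines are class medians. The 7 coloured, named points passed an adjusted p of 0.05, and most grey points lie within 0.25 of the dotted line at 0.

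The histone deacetylases remove acetyl groups, and their class IIa (Hdac4, Hdac5, Hdac7 and Hdac9) holds large proteins that shuttle between nucleus and cytoplasm and bind MEF2 transcription factors. Hdac5 (ENSMUSG00000008855, chr11:102194432-102230166, minus strand), whose promoter window is printed above, stood at 18.9 and 18.2 RPM in Reg1-MOs, against 11.1 and 12.2 in Ctrl MO. Both Reg1-MOs libraries lay above both Ctrl MO libraries, a 1.59-fold rise (log2 0.67, SE 0.11, 95% interval 0.42 to 0.92; adjusted p = 0.0082, limma, Benjamini-Hochberg). Hdac9 (ENSMUSG00000004698, chr12:34047580-34917095, minus strand) stood at 5.19 and 7.68 in Reg1-MOs, against 13.2 and 14.5 in Ctrl MO. These were 100 and 136 reads in Reg1-MOs and 252 and 276 in Ctrl MO, the lowest mean over the 4 libraries among the genes that passed. The Reg1-MOs values lay below both Ctrl MO values and differed more from each other than the Ctrl MO values did. The level was 2.20-fold lower (log2 -1.13, SE 0.19, 95% interval -1.57 to -0.69; adjusted p = 0.01, limma, Benjamini-Hochberg).

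Hdac4, another class IIa gene, had 7.35 and 8.92 RPM in Reg1-MOs, against 5.37 and 6.69 in Ctrl MO, without overlap, and did not pass (log2 0.43, 95% interval 0.05 to 0.82; adjusted p = 0.132, limma, Benjamini-Hochberg). Its exons share 22.4% of their bases with a gene annotated on the opposite strand (Gm26720), and the strand setting of the counting is not given, so reads of the 2 cannot be told apart. Hdac7, the fourth class IIa gene, had 12.3 and 11.7 in Reg1-MOs, against 9.72 and 12.0 in Ctrl MO, with overlap (log2 0.15, 95% interval -0.16 to 0.46).

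A further scale also divides by the merged length of all annotated exons of a gene. It allows only a rough comparison between genes, since the length of the transcripts in use is not known. On it Hdac5 stood at 2.11 ± 0.0615 RPM per kilobase in Reg1-MOs and 1.33 ± 0.0853 in Ctrl MO (SD, n = 2 each). Hdac9 stood at 0.439 ± 0.120 in Reg1-MOs and 0.946 ± 0.0613 in Ctrl MO (SD, n = 2 each). The ratio of Hdac5 to Hdac9 per kilobase was 6.09 and 3.95 in the Reg1-MOs libraries, against 1.41 and 1.40 in the Ctrl MO libraries. The ratio is a description of a pair chosen after its values were seen. Without the first Reg1-MOs library Hdac5 did not pass (adjusted p = 0.0670; range over 11 alternatives 5.57e-06 to 0.0670, limma, Benjamini-Hochberg). Without a trend Hdac9 did not pass (adjusted p = 0.0758; range 8.57e-09 to 0.0758, limma, Benjamini-Hochberg).

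The class I deacetylases, of which Hdac1, Hdac2 and Hdac3 are catalytic subunits of nuclear co-repressor complexes, stayed close to 0. Hdac1, which serves NuRD, Sin3 and CoREST, differed by -0.08 on the log2 scale, its near twin Hdac2 by -0.01, and Hdac8 by 0.12. Hdac3, the deacetylase of the NCoR complex, had 29.6 and 26.1 RPM in Reg1-MOs, against 29.8 and 28.7 in Ctrl MO (log2 -0.07, 95% interval -0.30 to 0.16). The class IIb genes Hdac6, a cytoplasmic tubulin deacetylase, and Hdac10, a polyamine deacetylase, differed by 0.22 and 0.35 on the log2 scale, and neither passed. The co-repressor scaffold Ncor1 had 125 and 166 in Reg1-MOs, against 135 and 159 in Ctrl MO, and these values overlapped (log2 -0.03, 95% interval -0.35 to 0.30).

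None of the 7 sirtuins, the NAD-dependent deacetylases and deacylases, passed in limma, with or without voom weights, and 0 had an unadjusted p under 0.05, beside 29.4% of all genes. Sirt1, which deacetylates histones and transcription factors including the p65 subunit of NF-kappaB, had 59.7 and 75.1 RPM in Reg1-MOs, against 59.3 and 64.0 in Ctrl MO (log2 0.12, 95% interval -0.15 to 0.39). Sirt6, a chromatin-bound deacetylase, had 14.4 and 13.8 in Reg1-MOs, against 12.5 and 11.4 in Ctrl MO, without overlap (log2 0.24, 95% interval -0.01 to 0.50; adjusted p = 0.184, limma, Benjamini-Hochberg). Over all 19 deacetylases and co-repressors, 1 rose and 1 fell, and the median log2 difference was 0.01.

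**Figure D2:**
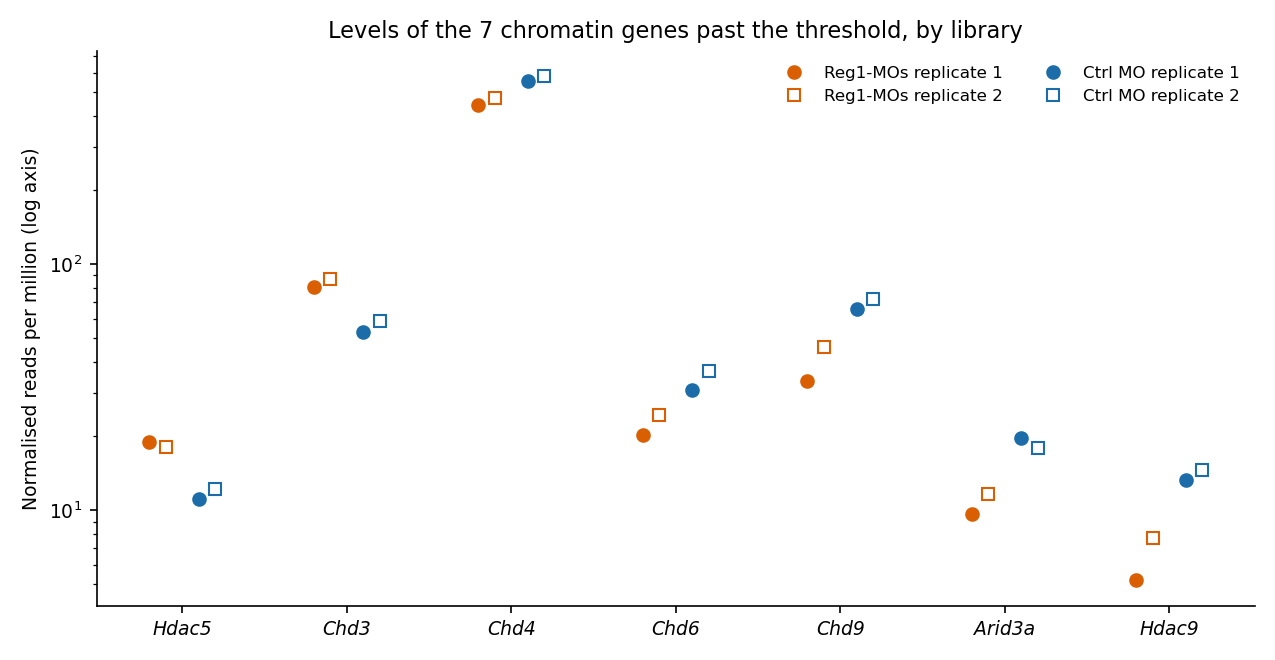
RPM (log axis) of the 7 chromatin genes that passed the test, one symbol per library, Reg1-MOs left of Ctrl MO for each gene. The groups do not overlap for any of the 7, and the gap between Reg1-MOs replicates is widest for Hdac9 (5.19 and 7.68) and Chd9 (33.5 and 46.1).

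The CHD remodellers held 4 of the 7 calls among 10 genes (40%, beside 12.2% of all genes; the classes were compared after their values were seen). All carry a pair of chromodomains except Chd1l, which has a macrodomain in their place. Chd3 and Chd4 encode alternative ATPases of NuRD, and moved in opposite directions. Chd3 (ENSMUSG00000018474, chr11:69343273-69369406, minus strand) stood at 80.9 and 86.8 RPM in Reg1-MOs, against 53.1 and 58.6 in Ctrl MO. All Reg1-MOs values lay above all Ctrl MO values, a 1.50-fold rise (log2 0.59, SE 0.08, 95% interval 0.39 to 0.78; adjusted p = 0.00579, limma, Benjamini-Hochberg). Chd4 (ENSMUSG00000063870, chr6:125095981-125130591, plus strand), the most abundant remodeller of the family, stood at 443 and 474 in Reg1-MOs, against 553 and 581 in Ctrl MO. It was 1.24-fold lower in Reg1-MOs, without overlap (log2 -0.31, SE 0.07, 95% interval -0.47 to -0.15; adjusted p = 0.0278, limma, Benjamini-Hochberg).

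Per kilobase of exon, Chd4 was still the higher of these NuRD ATPases in every library, at 57.2 ± 2.77 in Reg1-MOs and 70.7 ± 2.49 in Ctrl MO, and Chd3 stood at 9.93 ± 0.487 in Reg1-MOs and 6.62 ± 0.461 in Ctrl MO (SD, n = 2 each). The ratio of Chd3 to Chd4 was 0.174 in both Reg1-MOs libraries, against 0.0913 and 0.0958 in the Ctrl MO libraries, again a description of a pair chosen after its values were seen. Chd5, the third gene of this subfamily and mainly a neuronal one, had 28 and 31 reads in Reg1-MOs, against 29 and 37 in Ctrl MO (log2 -0.11, 95% interval -0.68 to 0.46).

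Chd6 to Chd9 form the subfamily of large proteins with BRK domains. Chd9 (ENSMUSG00000056608, chr8:90828352-91054516, plus strand) stood at 33.5 and 46.1 RPM in Reg1-MOs, against 65.7 and 71.9 in Ctrl MO. It was 1.75-fold lower, without overlap (log2 -0.81, SE 0.14, 95% interval -1.14 to -0.47; adjusted p = 0.0132, limma, Benjamini-Hochberg). Chd6 (ENSMUSG00000057133, chr2:160946978-161109075, minus strand) stood at 20.2 and 24.3 in Reg1-MOs, against 30.9 and 36.7 in Ctrl MO. It was 1.52-fold lower, again without overlap (log2 -0.60, SE 0.13, 95% interval -0.90 to -0.30; adjusted p = 0.0241, limma, Benjamini-Hochberg).

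The other members of that subfamily did not pass. Chd7, the gene mutated in CHARGE syndrome in humans, had 25.3 and 30.6 RPM in Reg1-MOs, against 24.8 and 23.8 in Ctrl MO (log2 0.19, 95% interval -0.07 to 0.46). Chd8, a regulator of beta-catenin targets, had 106 and 117 in Reg1-MOs, against 107 and 120 in Ctrl MO, and the values overlapped (log2 -0.02, 95% interval -0.23 to 0.18). Chd1, which binds methylated lysine 4 of histone H3 and travels with elongating polymerase, had 171 and 220 in Reg1-MOs, against 246 and 264 in Ctrl MO, without overlap, and did not pass (log2 -0.39, SE 0.12; adjusted p = 0.067, limma, Benjamini-Hochberg). It passed under quantile normalization, under equal totals and without Reg1-MOs replicate 2 or Ctrl MO replicate 1.

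Without a mean-variance trend none of the 4 CHD genes passed (adjusted p between 0.0604 for Chd3 and 0.134 for Chd4, limma, Benjamini-Hochberg; over 11 alternatives the range was 1.07e-08 to 0.0604 for Chd3 and 1.11e-10 to 0.0986 for Chd9). Chd4 did not pass without Reg1-MOs replicate 1 (adjusted p = 0.0914), Ctrl MO replicate 1 (0.132) or Ctrl MO replicate 2 (0.305; range over 11 alternatives 4.05e-05 to 0.305, limma, Benjamini-Hochberg). Chd6 did not pass without Reg1-MOs replicate 1 (adjusted p = 0.127) or Ctrl MO replicate 2 (0.0818; range 7.27e-07 to 0.127, limma, Benjamini-Hochberg).

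**Figure D3:**
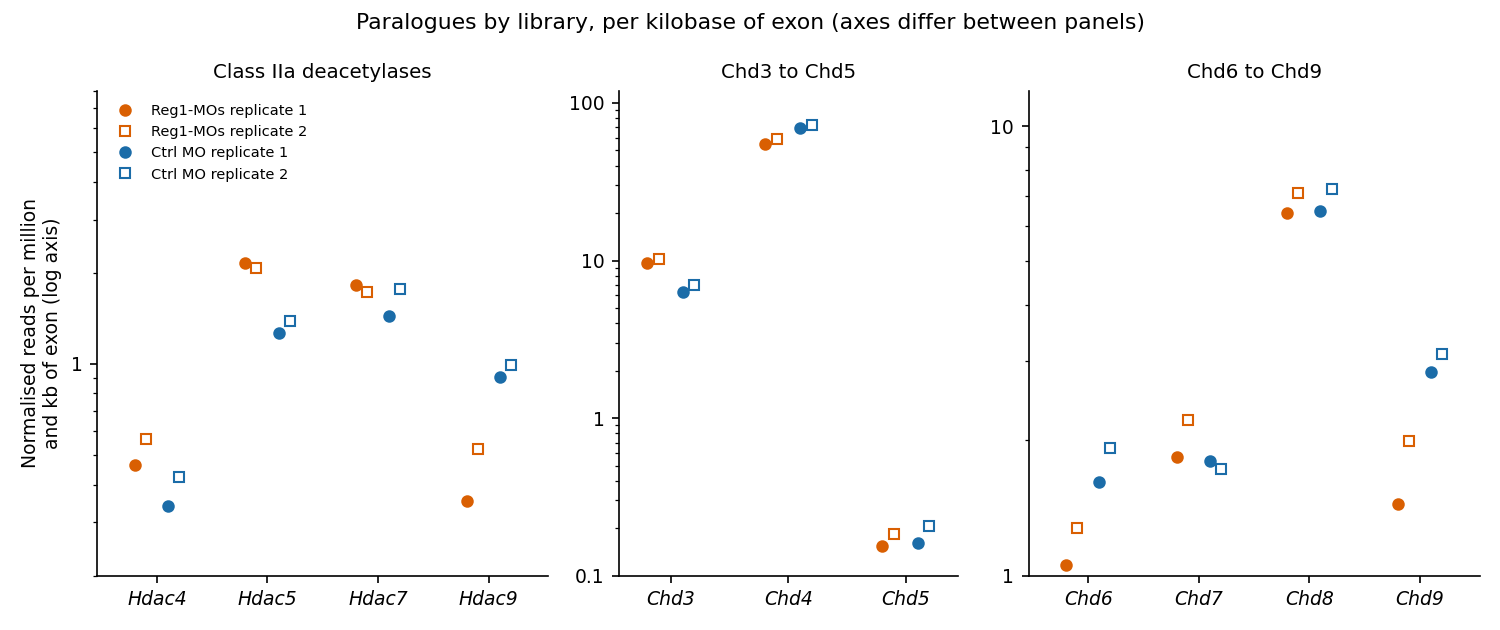
RPM per kilobase of exon (log axes, which differ between panels) in each library for the class IIa deacetylases, for Chd3 to Chd5 and for Chd6 to Chd9, with Reg1-MOs left of Ctrl MO. Hdac5 lies higher and Hdac9 lower in Reg1-MOs, Chd3 higher and Chd4 lower, and Chd6 and Chd9 lie lower while the Chd8 symbols of the groups overlap.

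ARID proteins share a DNA-binding domain, and outside SWI/SNF they have little else in common. Arid3a (ENSMUSG00000019564, chr10:79927043-79955018, plus strand), first known as the B cell factor Bright that binds AT-rich DNA at the immunoglobulin heavy chain locus, stood at 9.62 and 11.6 RPM in Reg1-MOs, against 19.7 and 17.9 in Ctrl MO. Both Reg1-MOs values lay below both Ctrl MO values, and the level was 1.78-fold lower (log2 -0.83, SE 0.13, 95% interval -1.13 to -0.53; adjusted p = 0.00747, limma, Benjamini-Hochberg). It did not pass without a mean-variance trend (adjusted p = 0.0585) or without Reg1-MOs replicate 1 (0.0572; range over 11 alternatives 2.58e-07 to 0.0585, limma, Benjamini-Hochberg).

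Arid5a has a described role against Regnase-1: its protein binds the Il6 messenger RNA and protects it from that RNase. It had 186 and 177 RPM in Reg1-MOs, against 213 and 208 in Ctrl MO, so the groups did not overlap, and the difference did not pass (log2 -0.21, SE 0.07, 95% interval -0.37 to -0.06; adjusted p = 0.0773, limma, Benjamini-Hochberg). Its paralogue Arid5b, a partner of the demethylase-like Phf2, had 46.2 and 71.8 in Reg1-MOs, against 51.3 and 65.9 in Ctrl MO. Here the Reg1-MOs values lay on both sides of the Ctrl MO values. Over these 6 ARID genes 1 fell and none rose (16.7%, beside 12.2% of all genes), with a median of -0.12.

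None of the 14 SWI/SNF and ISWI subunits passed in limma, with or without voom weights, and 3 (21.4%) had an unadjusted p under 0.05, beside 29.4% of all genes. Their log2 differences ran from -0.31 to 0.08, with a median of -0.08. Smarca4, the BRG1 ATPase that opens chromatin at many LPS-inducible genes, had 239 and 248 RPM in Reg1-MOs, against 249 and 261 in Ctrl MO (log2 -0.06, 95% interval -0.22 to 0.09). Per kilobase it stood at 37.6 ± 0.971 in Reg1-MOs and 39.4 ± 1.32 in Ctrl MO, and its alternative Smarca2 differed by 0.08 on the log2 scale. The largest difference in the class was at Arid1a, the DNA-binding subunit of the canonical BAF complex, with 227 and 252 in Reg1-MOs, against 276 and 319 in Ctrl MO (log2 -0.31, SE 0.09; adjusted p = 0.0645, limma, Benjamini-Hochberg). Arid1a passed under quantile normalization and under equal totals, and Smarcad1 of the same class passed without Reg1-MOs replicate 2. Arid1b, its alternative in that complex, differed by -0.09, Arid2 of the PBAF complex by -0.10, and the ISWI ATPase Smarca5 by -0.04. Smarcad1, an ATPase outside these complexes that restores silent chromatin after replication, had 34.1 and 41.9 in Reg1-MOs, against 45.8 and 47.5 in Ctrl MO, without overlap (log2 -0.30, SE 0.11; adjusted p = 0.116, limma, Benjamini-Hochberg).

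None of the 16 histone demethylases passed in limma, with or without voom weights, and 1, Kdm4a, had an unadjusted p under 0.05 (6.25%, beside 29.4% of all genes). Their median log2 difference was -0.12. Kdm6b, also called JMJD3, removes methyl groups from lysine 27 of histone H3 and is itself induced by LPS in macrophages. It had 40.4 and 40.6 RPM in Reg1-MOs, against 38.9 and 44.6 in Ctrl MO, so the Reg1-MOs values lay between the Ctrl MO values (log2 -0.04, SE 0.09, 95% interval -0.26 to 0.18; adjusted p = 0.818, limma, Benjamini-Hochberg). Its X-linked paralogue Kdm6a, or UTX, had 36.3 and 45.7 in Reg1-MOs, against 44.2 and 47.4 in Ctrl MO (log2 -0.17, 95% interval -0.45 to 0.11). Kdm4a, which acts on lysines 9 and 36 of histone H3 and was the most abundant demethylase per kilobase, had 387 and 399 in Reg1-MOs, against 468 and 454 in Ctrl MO. It did not overlap and came closest to the threshold among genes that did not pass (log2 -0.23, SE 0.06, 95% interval -0.38 to -0.09; adjusted p = 0.0527, limma, Benjamini-Hochberg).

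The demethylases of lysine 4 of histone H3 differed from each other in sign. Kdm5a had 61.9 and 82.2 RPM in Reg1-MOs, against 82.3 and 95.8 in Ctrl MO (log2 -0.32, 95% interval -0.64 to 0.01). Kdm5b had 8.08 and 10.05 in Reg1-MOs, against 6.89 and 7.53 in Ctrl MO (log2 0.32, 95% interval -0.02 to 0.67), the highest value of the class. Kdm5c differed by -0.05 and Kdm1a, the flavin-dependent LSD1, by -0.08 on the log2 scale, and the widest negative value belonged to Kdm8 (-0.45, SE 0.34) at under 50 reads.

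None of the 21 methyltransferases passed in limma either, with or without voom weights, and 7 (33.3%) had an unadjusted p under 0.05, near the 29.4% of all genes. Setd7 and Kmt5b passed under quantile normalization and under equal totals, and Kmt5b and Setdb1 passed when Reg1-MOs replicate 2 was left out. The median of the class was -0.09. Setdb1, which trimethylates lysine 9 of histone H3 at silenced repeats, had 17.1 and 19.7 RPM in Reg1-MOs, against 23.9 and 23.5 in Ctrl MO (log2 -0.37, 95% interval -0.62 to -0.13; adjusted p = 0.0591, limma, Benjamini-Hochberg). Setdb2, an interferon-inducible relative and the most abundant methyltransferase by reads, had 216 and 259 in Reg1-MOs, against 217 and 232 in Ctrl MO (log2 0.08, 95% interval -0.15 to 0.30). Setd7, a monomethylase of lysine 4 of histone H3 and of other proteins, had 13.8 and 17.2 in Reg1-MOs, against 10.4 and 11.5 in Ctrl MO, the highest value of the class (log2 0.49, 95% interval 0.17 to 0.81; adjusted p = 0.0565, limma, Benjamini-Hochberg). The groups did not overlap for Setdb1 or Setd7, and overlapped for Setdb2.

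Ezh2 and Ezh1 are the alternative catalytic subunits of Polycomb repressive complex 2 (PRC2), which methylates lysine 27 of histone H3. Ezh2 had 12.9 and 15.5 RPM in Reg1-MOs, against 11.2 and 11.5 in Ctrl MO (log2 0.31, 95% interval 0.02 to 0.60; adjusted p = 0.145, limma, Benjamini-Hochberg). Ezh1 had 52.0 and 53.0 in Reg1-MOs, against 43.4 and 47.8 in Ctrl MO (log2 0.20, 95% interval 0.01 to 0.40; adjusted p = 0.153, limma, Benjamini-Hochberg). For both the Reg1-MOs values were the higher ones without overlap. Kmt5b, which dimethylates lysine 20 of histone H4, differed by -0.33 (SE 0.10; adjusted p = 0.0611, limma, Benjamini-Hochberg), and Suv39h1, of pericentromeric heterochromatin, by -0.25 (SE 0.09). Of the MLL enzymes that methylate lysine 4, Kmt2a differed by -0.16, Kmt2b by -0.09, Kmt2c by -0.10 and Kmt2d by 0.03, and the MLL relative Kmt2e by -0.26. Setd2, the trimethylase of lysine 36, differed by -0.12. The lowest value of the class was that of Setd4, with 16 and 10 reads in Reg1-MOs, against 27 and 26 in Ctrl MO (log2 -0.997, 95% interval -1.71 to -0.28; adjusted p = 0.0759, limma, Benjamini-Hochberg).

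The 7 acetyltransferases had a median of -0.23, which was -0.03 when Reg1-MOs replicate 1 was left out. None passed in limma, with or without voom weights, and 2 (28.6%) had an unadjusted p under 0.05, near the 29.4% of all genes. Kat2b passed under quantile normalization, under equal totals and when Reg1-MOs replicate 2 was left out. The paralogues Kat2b (PCAF) and Kat2a (GCN5), the catalytic subunits of the SAGA and ATAC complexes, were both lower in every Reg1-MOs library than in every Ctrl MO library. Kat2b had 116 and 137 RPM in Reg1-MOs, against 155 and 161 in Ctrl MO (log2 -0.33, 95% interval -0.54 to -0.11; adjusted p = 0.0572, limma, Benjamini-Hochberg). Kat2a had 22.2 and 20.3 in Reg1-MOs, against 26.7 and 25.4 in Ctrl MO (log2 -0.29, SE 0.10; adjusted p = 0.0886, limma, Benjamini-Hochberg). Kat6a (MOZ), with 176 and 246 in Reg1-MOs and 227 and 264 in Ctrl MO, overlapped between groups. Kat5 (TIP60) differed by -0.06, and Kat8 (MOF), which acetylates lysine 16 of histone H4, by 0.12 on the log2 scale.

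Among the 7 bromodomain proteins none passed in limma, with or without voom weights, 2 (28.6%) had an unadjusted p under 0.05, near the 29.4% of all genes, and the median was -0.04. Brd2 and Brd3 belong to the BET family, which binds acetylated histones. Brd2 had the highest level per kilobase of all 106 chromatin genes, 140 ± 4.34 in Reg1-MOs and 127 ± 3.55 in Ctrl MO (SD, n = 2 each). Its RPM values were 1069 and 1117 in Reg1-MOs, against 975 and 1014 in Ctrl MO (log2 0.14, 95% interval -0.01 to 0.28). Brd3 had 22.0 and 21.6 in Reg1-MOs, against 25.6 and 25.8 in Ctrl MO (log2 -0.24, 95% interval -0.44 to -0.03; adjusted p = 0.12, limma, Benjamini-Hochberg). Brd8, a subunit of the TIP60 acetyltransferase complex, had 35.7 and 35.9 in Reg1-MOs, against 30.01 and 28.9 in Ctrl MO (log2 0.28, SE 0.08; adjusted p = 0.0653, limma, Benjamini-Hochberg).

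Of the 6 genes of DNA methylation none passed in limma, with or without voom weights, and 1, Tet3, had an unadjusted p under 0.05 (16.7%, beside 29.4% of all genes). Tet3 passed under quantile normalization and when Ctrl MO replicate 1 was left out. All 6 log2 differences were under 0, beside 54.4% of all genes, with a median of -0.21. The 95% interval excluded 0 only for Tet3, and Dnmt3aos and Dnmt3b had a mean under 50 reads. Without Ctrl MO replicate 2, 5 of the 6 were under 0. Tet2, which oxidises methylcytosine and brings Hdac2 to the Il6 gene to end its transcription, had 192 and 262 RPM in Reg1-MOs, against 242 and 284 in Ctrl MO, with overlap (log2 -0.23, 95% interval -0.56 to 0.11). Tet3 had 38.2 and 41.5 in Reg1-MOs, against 46.7 and 56.8 in Ctrl MO, without overlap (log2 -0.37, 95% interval -0.63 to -0.12; adjusted p = 0.067, limma, Benjamini-Hochberg). The maintenance methyltransferase Dnmt1 differed by -0.18 and the establishing enzyme Dnmt3a by -0.19 on the log2 scale. Dnmt3aos, the antisense transcript of Dnmt3a, shares 133 bases of exon with it, and without a known strand setting their reads cannot be told apart there.

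Per kilobase of exon, the most abundant chromatin genes after Brd2 were Kdm4a (68.0 ± 1.53 in Reg1-MOs and 79.8 ± 1.72 in Ctrl MO) and, in both groups, Chd4 and Setdb2 next. Setdb2 stood at 58.7 ± 7.39 in Reg1-MOs and 55.5 ± 2.54 in Ctrl MO (SD, n = 2 each). The order of the last pair differed between groups, Setdb2 above Chd4 in the Reg1-MOs mean and below it in the Ctrl MO mean, and in Reg1-MOs the gap of their means was smaller than the SD of Setdb2.

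The direction of several class medians rested on single libraries. Without Reg1-MOs replicate 1 the median was 0.04 for the CHD genes, 0.05 for the methyltransferases, 0.07 for the ARID genes outside SWI/SNF and 0.02 for the bromodomain proteins, and without Ctrl MO replicate 2 it was 0.03 for the CHD genes and 0.05 for the methyltransferases. The medians of the acetyltransferases, demethylases, SWI/SNF and ISWI subunits and DNA methylation genes were under 0 whichever library was left out, but that of the acetyltransferases was -0.03 and that of the demethylases -0.02 without Reg1-MOs replicate 1, and that of the DNA methylation genes lay between -0.37 and -0.11.

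The differences between replicates had a pattern that the chromatin genes shared with the rest of the table. Long genes were higher in the second library of each group. Among the 37 with at least 10 kb of exon, the second library exceeded the first by a median log2 of 0.28 in Reg1-MOs and 0.17 in Ctrl MO, and it was the higher one in both groups for 31 of the 37. Among the 69 with under 10 kb of exon the medians were 0.02 in Reg1-MOs and 0.03 in Ctrl MO, and the second library was the higher in both groups for 29 of the 69. Across the 106 genes, exon length and the replicate difference had a Pearson r of 0.56 (Spearman rho 0.59) in Reg1-MOs and 0.28 (rho 0.44) in Ctrl MO. These points share libraries and are given as a description.

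The widest replicate gap among well-counted genes was that of Kmt2c (MLL3), with 71.9 and 123 RPM in Reg1-MOs, against 90.6 and 112 in Ctrl MO. Exon length and the log2 difference between groups had an r of -0.14 (rho -0.11, n = 106). Of the calls, Hdac9, Chd9 and Chd6 have at least 10 kb of exon and all 3 fell, while the 4 with shorter exons divided into 2 that fell and 2 that rose. The part of this length-dependent replicate difference in those calls was not tested. The chromatin genes had a median exon length of 7609 bases, beside 4536 over all genes.

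**Figure D4:**
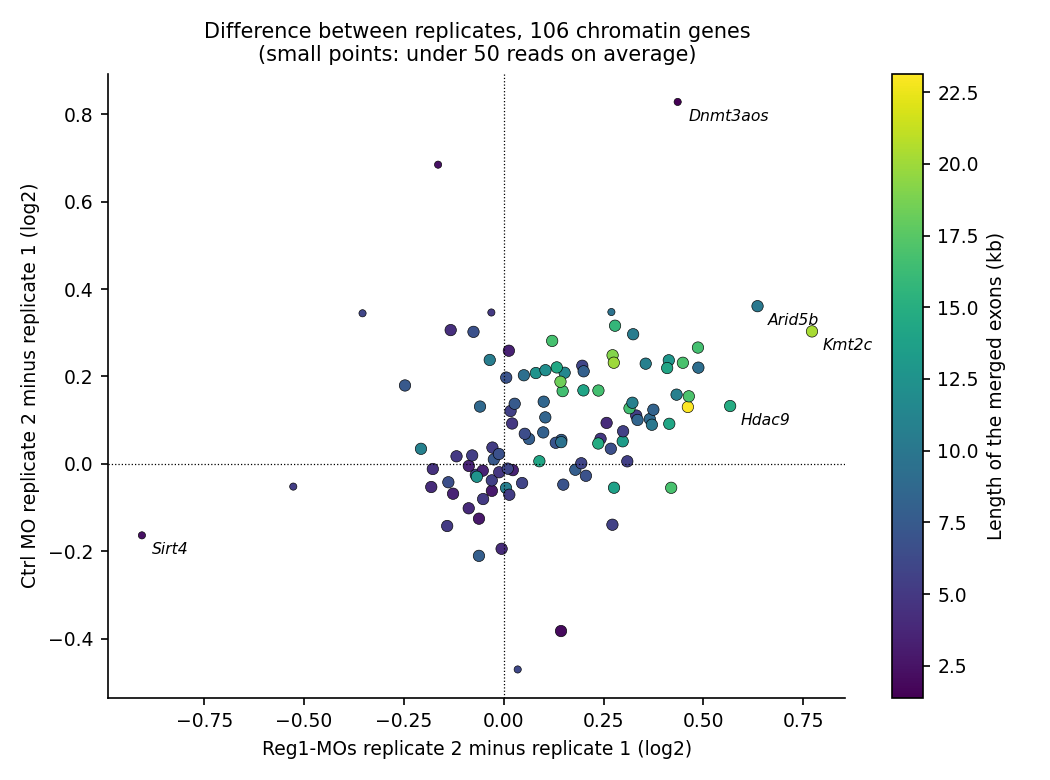
Log2 difference of replicate 2 minus replicate 1 in Reg1-MOs (horizontal axis) and in Ctrl MO (vertical axis) for the 106 chromatin genes, coloured by the length of the merged exons in kb; small points have under 50 reads on average. Long genes (green and yellow) gather in the upper right, where the second library is the higher in both groups, with Kmt2c and Arid5b farthest out among the large points.

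A second list held 197 partner subunits and other chromatin factors that the symbol rule does not take, and 194 of them were in the table. Of these, 5 rose and 9 fell (7.22%, beside 12.2% of all genes), and the median log2 difference was -0.07. The genes that rose were Tbl1xr1, a subunit of the NCoR complex (log2 0.50, adjusted p = 0.0219), the acetyltransferase Hat1 of newly made histone H4 (0.32, 0.0272), the H2A.Z chaperone Vps72 (0.38, 0.0288), the replication-coupled histone chaperone Chaf1b (0.80, 0.0430) and the methyltransferase Smyd3 (0.52, 0.0473; limma, Benjamini-Hochberg). The 5 lowest p-values among those that fell belonged to Mbtd1, a TIP60 complex subunit (-0.55, 0.00602), the heterochromatin protein HP1-alpha gene Cbx5 (-0.71, 0.0148), Msl1 of the MOF-containing MSL complex (-0.42, 0.0154), Sgf29 of SAGA (-0.77, 0.0170) and Asxl1, a partner of the deubiquitinase BAP1 (-0.35, 0.0353; limma, Benjamini-Hochberg).

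Cbx5 had 14.0 and 17.8 RPM in Reg1-MOs, against 25.03 and 26.4 in Ctrl MO, and Mbtd1 had 31.6 and 32.7 in Reg1-MOs, against 46.6 and 47.5 in Ctrl MO. Tbl1xr1 had 16.6 and 17.9 in Reg1-MOs, against 11.9 and 12.4 in Ctrl MO. In none of these did the groups overlap. Chaf1b was counted low, at 59 and 53 reads in Reg1-MOs and 36 and 30 in Ctrl MO. The list's counts moved when single libraries were left out, and so did the counts over all genes. The log2 difference then ran from -0.88 to -0.53 for Cbx5 and from -0.58 to -0.53 for Mbtd1. For Tbl1xr1 it ran from 0.45 to 0.55 and for Chaf1b from 0.67 to 0.93. These ranges give the size of the difference and do not show that the calls held. Without a mean-variance trend no gene of this list passed as higher, and of those that fell only Mbtd1 passed.

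Both lists together were laid out by 8 complexes. The share of subunits that passed was 23.1% in NuRD, 20% in NCoR and 11.1% in SAGA and ATAC. It was 5.88% in Sin3 and 4.35% in SWI/SNF. Each share came from 1 to 3 calls and stands beside 12.2% of all genes. NuRD held 1 subunit that rose (Chd3) and 2 that fell among 13, Chd4 and the methyl-CpG-binding subunit Mbd2 (log2 -0.24, adjusted p = 0.0473, limma, Benjamini-Hochberg), and its median was -0.09. Among 5 NCoR subunits 1 rose, Tbl1xr1, and among 17 of Sin3 1 fell, Ing1, a reader of methylated lysine 4 (log2 -0.41, adjusted p = 0.0399, limma, Benjamini-Hochberg). Among 23 SWI/SNF subunits 1 fell, Phf10 of PBAF (log2 -0.34, adjusted p = 0.0492, limma, Benjamini-Hochberg), and among 9 of SAGA and ATAC 1 fell, Sgf29. No subunit passed among 10 of PRC2, 18 of the MLL and SET1 complexes and 12 of the MOZ and HBO1 complexes, whose medians were 0.08, -0.06 and -0.11 and of which 2, 1 and 1 had an unadjusted p under 0.05 (20%, 5.56% and 8.33%, under the 29.4% of all genes). The grouping into complexes was made after the values were seen. Without a mean-variance trend none of the subunits named here as rising or falling passed, so the shares depend on that setting.

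**Figure D5:**
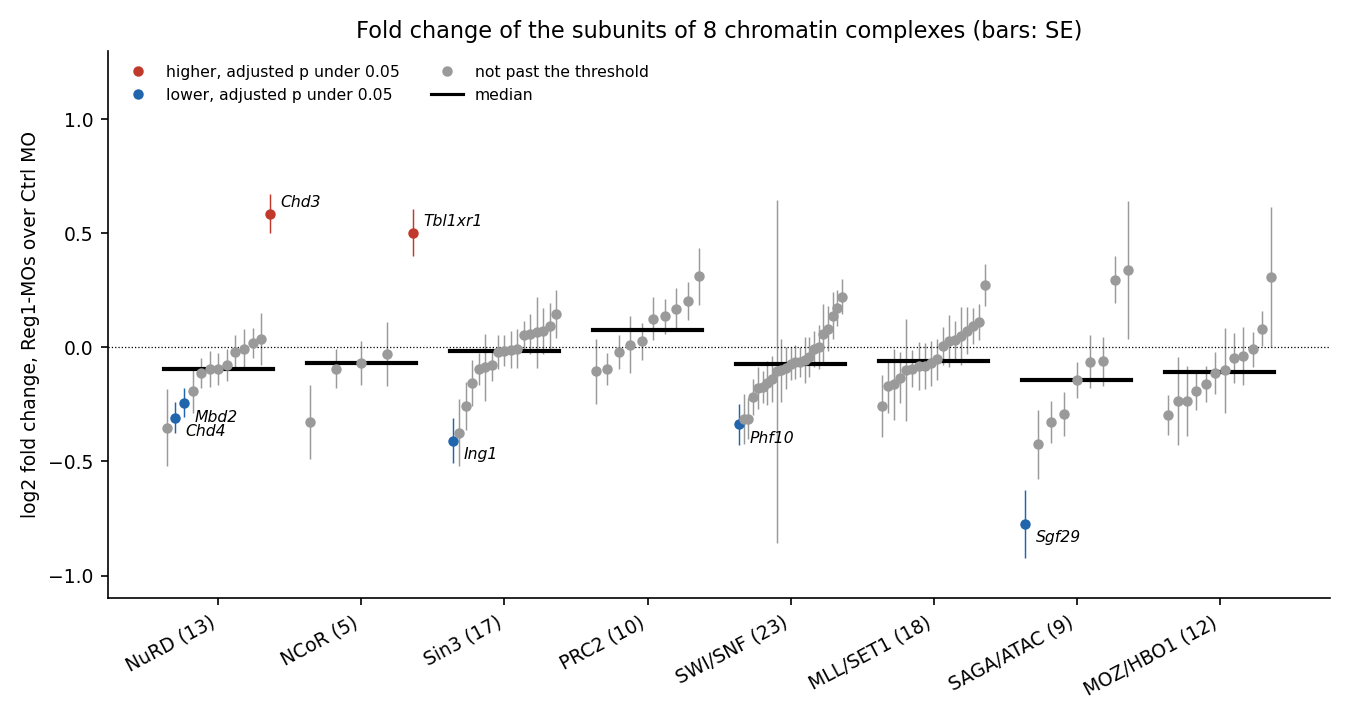
Log2 fold change of Reg1-MOs over Ctrl MO for the subunits of 8 chromatin complexes (points, with the SE as bars; the number of subunits is in brackets and black lines are medians). Coloured, named points passed an adjusted p of 0.05: Chd3 and Tbl1xr1 lie above 0, Chd4, Mbd2, Ing1, Phf10 and Sgf29 below it, and the medians of all 8 complexes lie within 0.25 of 0.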

How the data were processed

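Per the labels' protocols, directional poly(A) libraries were sequenced on a NextSeq instrument; per the submitters' processing notes, cutadapt, FastQC and HISAT2 1.6.3 were used with the mm10 build. Which counter, strand setting and filter were applied is not given in those notes. The deposited values are on a log2 scale: log2 of reads plus 0.5, scaled per library, and whole reads were recovered for 100% of values (tolerance 0.01). Levels here are 2 to the power of the deposited value, so they hold the offset, and lengths and coordinates come from GENCODE M21 (GRCm38), matched by Ensembl identifier.

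All 11111 genes were fitted with limma 3.58.1 in R 4.3.3 on the deposited log2 values with a mean-variance trend, two-sided, with Benjamini-Hochberg adjustment over all genes and a threshold of 0.05. The procedure was tested on simulated data. Named were all genes past the threshold, members with a described role in LPS-stimulated macrophages, the extremes and the highest read mean of each class, and the 5 smallest p-values in each direction of the second list; 17 further genes were named after their values were seen. Some items are counted but not reported here by name. The members and lists were chosen with earlier results of these data known. The alternatives tried were no trend, quantile normalization, equal totals, an offset of 8 reads, a mean of at least 50 reads, voom weights, each library left out and a replicate block.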

Additional observations from a re-analysis of the deposited data

How the results depend on the processing

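Of the chromatin genes, 2 rose and 5 fell as reported. These counts were 1 and 0 without a mean-variance trend (0.943%, beside 3.39% of all genes in that fit). With quantile normalization 3 rose and 10 fell (12.3%, beside 13.9% of all genes) and with equal totals 3 rose and 9 fell (11.3%, beside 14.1%). All 7 calls were kept under both, which added Arid1a, Chd1, Kat2b, Kmt5b and Setd7, and quantile normalization also added Tet3. All 7 were also kept with an offset of 8 reads, a mean of at least 50 reads and voom weights. Leaving out each library gave 1 to 2 that rose and 2 to 10 that fell; the lone library of an arm is then assumed to vary like the other group. For the second list, 0 rose and 1 fell without a trend, and its counts also moved when a library was left out. The median over the chromatin genes was between -0.12 and -0.02 when a library was left out.

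The groups share replicate numbers 1 and 2, but the labels state no pairing and there are only 2 pairs. With the replicate block, 7 chromatin genes rose and 27 fell (32.1%, beside 30.8% of all genes), and 13 rose and 31 fell in the second list. Besides the calls above, the block added Kdm4a and Kdm5a of the demethylases, and Kat2a, Kat2b and Kat6a. It also added Brd1, Brd3, Brd8, Dnmt3a, Tet2, Tet3, Arid1a, Smarcad1 and Smarcc2. Of the methyltransferases it added Ezh1, Ezh2, Kmt2a, Kmt2e, Kmt5b, Setd4, Setd7, Setdb1 and Suv39h1. Chd1, Hdac4, Arid4a and Arid5a passed in it too. Replicate differences of the groups correlated with r = 0.0958 over all genes, 0.314 over the 9476 with at least 50 reads and 0.33 over the 106 chromatin genes.

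Some values near 0 changed sign, none of them a call. With quantile normalization the log2 difference was 0.00601 for Hdac2, and with equal totals it was 0.00956 for Arid5b, 0.000574 for Chd8 and 0.017 for Hdac2. When a library was left out, the log2 difference ran from -0.19 to 0.0134 for Arid1b, -0.32 to 0.12 for Arid2, -0.33 to 0.30 for Arid5b, -0.29 to 0.0623 for Chd5, -0.11 to 0.0609 for Chd8, -0.31 to 0.0378 for Dnmt3b, -0.0947 to 0.0829 for Hdac2, -0.16 to 0.0216 for Hdac3 and -1.72e-05 to 0.30 for Hdac7. It ran from -0.48 to 0.00893 for Kat6a, -0.11 to 0.0185 for Kdm5c, -0.14 to 0.0599 for Kdm6b, -0.40 to 0.0815 for Kmt2a, -0.48 to 0.29 for Kmt2c, -0.11 to 0.17 for Kmt2d, -0.24 to 0.18 for Ncor1, -0.30 to 0.053 for Setd2, -0.0535 to 0.20 for Setdb2, -0.0464 to 0.29 for Sirt1 and -0.12 to 0.0283 for Smarca5. The cause was not tested.

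With 2 libraries a group, most chromatin genes (77 of 106) differed by under 0.25 on the log2 scale, and a p-value over the threshold does not show that such a gene was the same in both groups.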

Other observations

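Genes within 100000 bases of the 7 chromatin genes that passed the test were also read. Of 40 such genes in the table, 0 rose and 2 fell (5%, where 12.2% of all genes were called and 6.03% fell), and both lie beside Arid3a: Cnn2, which encodes an actin-binding calponin (log2 -0.86, adjusted p = 0.0082, limma, Benjamini-Hochberg), and Abca7, a lipid transporter gene (log2 -0.40, adjusted p = 0.01, limma, Benjamini-Hochberg). Chd3 has Kdm6b as a neighbour within that distance, and Kdm6b differed by -0.04 on the log2 scale while Chd3 rose by 0.59.

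Exons of 46 of the 106 chromatin genes share bases with another annotated gene, and for 3 of them the shared part is at least 20% of the exon length. Among the genes that passed, the overlaps are small: 0.847% of the Chd9 exon bases lie under an antisense gene (Gm45641), and Chd4 and Hdac5 each hold a microRNA gene (Mir7045 and Mir8101) in 0.786% and 1.26% of their exon bases.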
